A study of Mus musculus with 6 samples.

Results

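Chaperones are the proteins that help others fold, and 44 genes of the cytosolic, mitochondrial and endoplasmic reticulum chaperone systems were followed in transformed mouse blood progenitors given an inhibitor of histone methylation. The genes were chosen by name, with earlier results of these data known. Each was read from the probe set that names it alone and has the highest mean over the 6 arrays. By this rule 41 of the 44 were measured, out of 19937 genes tested in all. Hsp90ab1, Hsf1 and Hspa1b had no probe set that names them alone and were not analysed here. The members fall into 5 groups by compartment. These are the chaperonin TRiC (8 genes), the cytosolic HSP90 system (6 of 7 measured), the cytosolic HSP70 system with heat shock regulation (8 of 10), mitochondrial matrix chaperones (3) and the endoplasmic reticulum (16).

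The cells were haematopoietic stem and progenitor cells of the mouse transformed by HoxA9 and Meis1, a culture model of acute myeloid leukaemia kept in serum with stem cell factor and the cytokines IL-6 and IL-3. All 6 samples carry both transforming genes and grew in this medium. For 5 days, 3 samples were given the solvent DMSO and 3 were given UNC0638, a small molecule that inhibits the methyltransferases G9a and GLP. The labels give no dose and no batch, and do not say whether the line is a clone or whether the numbered samples were separate cultures, so the p-values rest on a spread that may be only technical.

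TRiC is a ring of different subunits in the cytosol that encloses actin, tubulin and other substrates while they fold. HSP70 proteins hold unfolded chains with the help of J-domain partners and nucleotide exchange factors, and HSP90 proteins take over clients such as kinases with the help of cochaperones. HSF1 is the factor that raises the cytosolic set under heat or other protein damage. In the endoplasmic reticulum, the HSP70 protein BiP (gene Hspa5), the HSP90 protein GRP94 (Hsp90b1), lectins and disulfide isomerases fold secreted proteins, and ATF6 and XBP1 raise them when folding fails.

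Of the 25 measured cytosolic and mitochondrial chaperones 24 had a lower mean after UNC0638, with a median log2 difference of -0.23. The 8 cytosolic HSP70 genes among the 25 had a median of -0.098, near the -0.078 of the 16 endoplasmic reticulum genes. No single member passed the test over all genes, and the largest differences were those of Cdc37, Cct7, Hyou1, Cct3 and Cct4. With limma and Benjamini-Hochberg adjustment, 0 of 41 members had an adjusted p under 0.05, where 0.672% of all genes did (0.301% lower and 0.371% higher). The lowest adjusted p was 0.0814, for Cct4. Without adjustment, 13 members were lower at a limma p under 0.05, against 6.21% of all genes, and 0 were higher, against 6.47%. In 16 members (39.0%) all 3 UNC0638 arrays lay below all 3 DMSO arrays, against 7.4% of all genes, and in 0 members did they lie above, against 9.59%. Of the 41 differences 35 lay below 0 (85.4%), against 46.1% of all genes. The median was -0.14 on the log2 scale, against 0.012 over all genes. A log2 difference here is UNC0638 minus DMSO, of log2(intensity + 16). These are counts over genes that share arrays, and no test was made of the list. The list was chosen with earlier results of these data known, so its shares are a description and not independent support. The count of 16 was 26 without DMSO 2 (against 11.1% of all genes), and the count of 13 was 8 without DMSO 1 (against 5.25%). At their own standard errors the members needed differences of 0.42 to 1.06 in size to be called, and the largest measured, -0.44 for Cdc37, would have needed 0.61. On the same arrays 4 of 12 mature neutrophil markers and 3 of 12 macrophage markers rose, and their part in the chaperone differences was not tested.

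**Figure D1:**
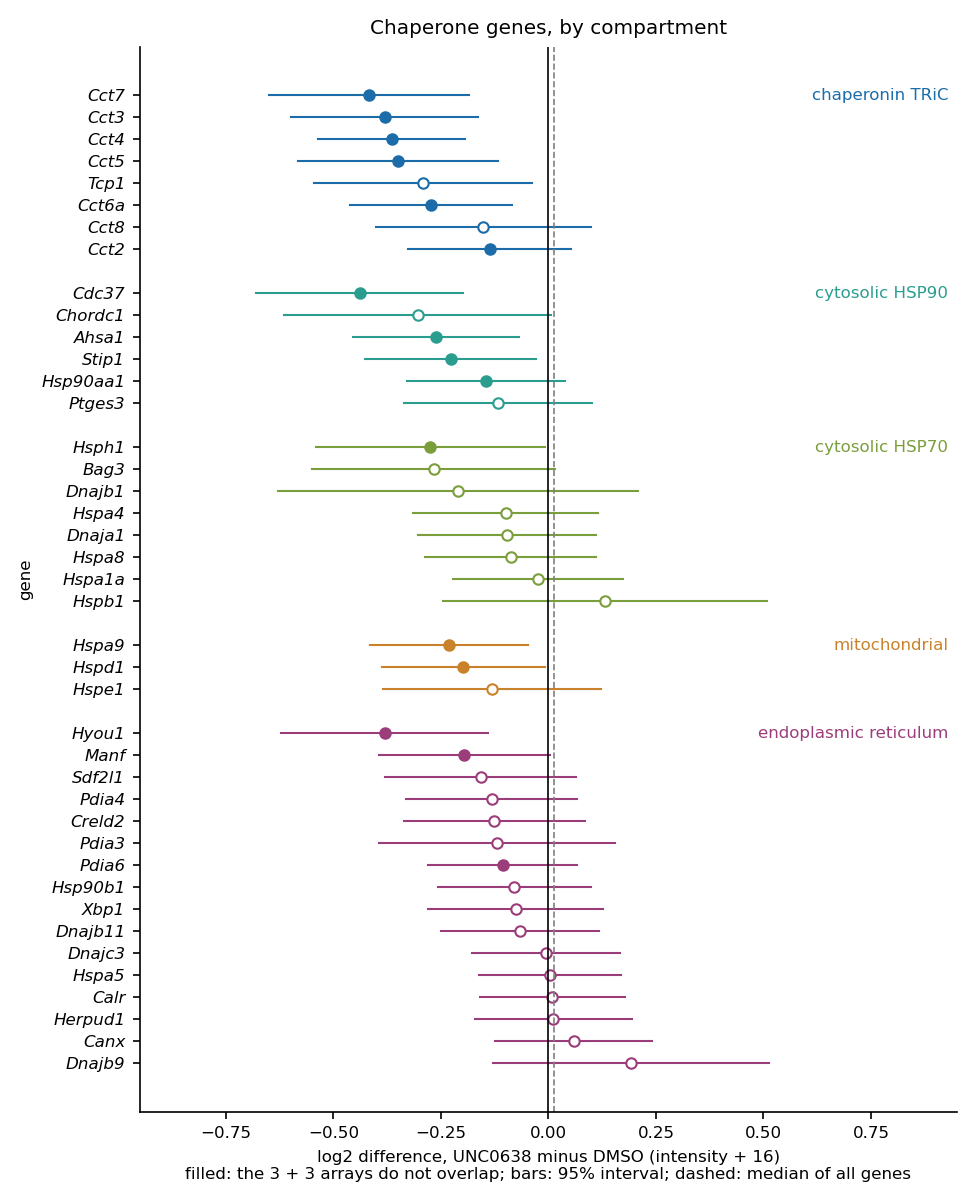
Log2 difference of each of the 41 measured chaperone genes, UNC0638 minus DMSO (x axis), with its 95% interval from limma, grouped by compartment and ordered by size; filled points mark genes whose 3 arrays of one group lie beyond the 3 of the other. The 8 TRiC subunits lie between -0.42 and -0.14, and the 16 genes of the endoplasmic reticulum between -0.38 and 0.19.

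TRiC had the lowest median of the 5 compartments. All 8 differences were below 0, with a median of -0.32, and in 6 of 8 genes the groups did not overlap. Of all genes 7.4% were lower without overlap. Cct7 (probe set 10539606) had intensities of 1221, 1115 and 994 with DMSO and of 764, 819 and 897 with UNC0638. The highest UNC0638 array lay below the lowest DMSO array, at a log2 difference of -0.42 (SE 0.10, adjusted p = 0.125). Cct3 (10493193) read 1028, 965 and 872 against 670, 738 and 782, again without overlap (-0.38, SE 0.095, adjusted p = 0.132). Cct4 (10374564) had the smallest standard error of the ring, at 1193, 1104 and 1166 against 886, 878 and 915. Its difference of -0.36 (SE 0.075, 95% interval -0.54 to -0.19) corresponds to a level of 0.777 of the control. Tcp1 (10441797), which encodes subunit alpha, was at 1790, 1580 and 1737 against 1296, 1265 and 1621. Here the third UNC0638 array lay above the second DMSO array, so the groups overlapped (-0.29, SE 0.11, adjusted p = 0.315). Cct5 (-0.35), Cct6a (-0.27) and Cct2 (-0.14) did not overlap between groups, and Cct8 (-0.15, 95% interval -0.40 to 0.10) did. The intervals of the smallest and the largest difference in the ring overlapped, from -0.33 to 0.053 for Cct2 and from -0.65 to -0.18 for Cct7.

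**Figure D2:**
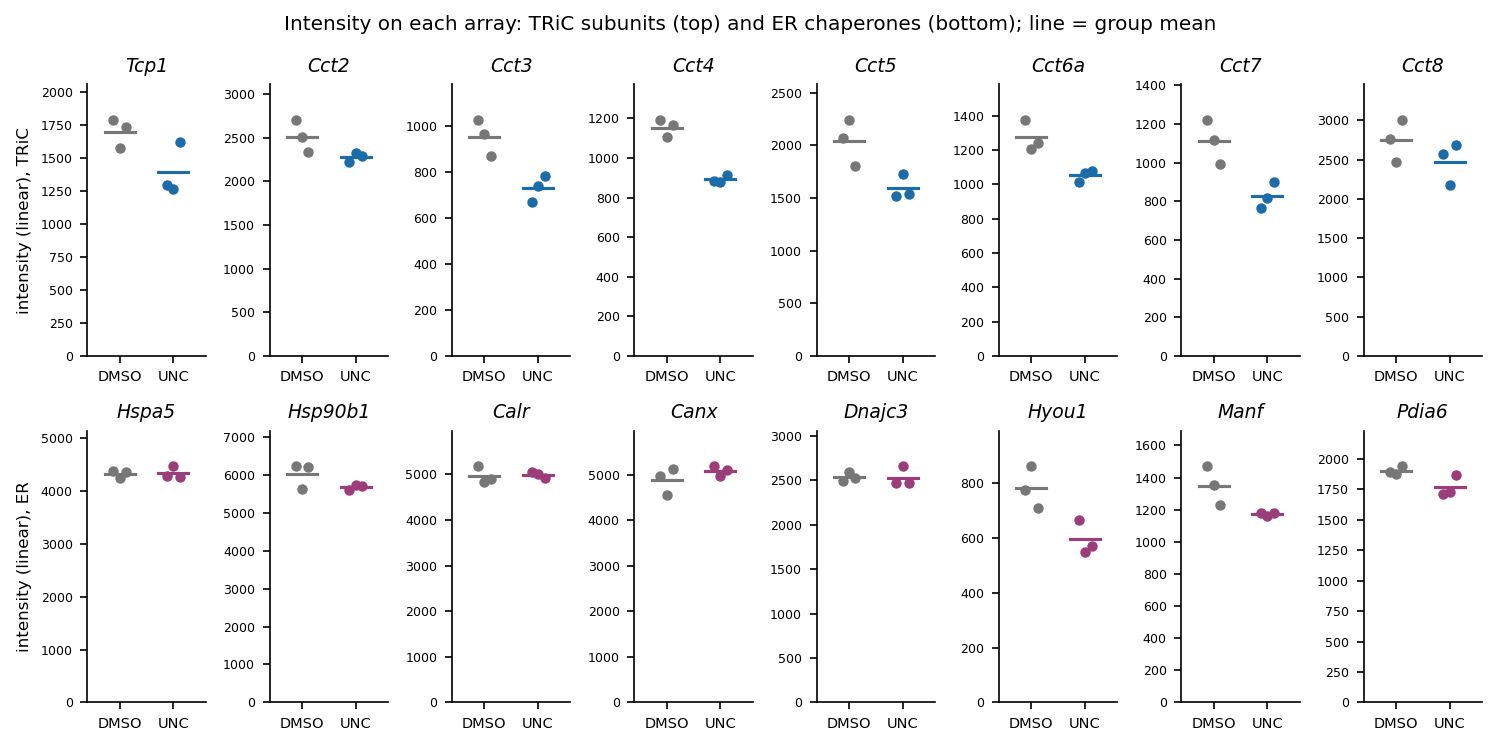
Linear intensity (y axis, from 0) on each DMSO array (grey) and UNC0638 array (coloured) for the 8 TRiC subunits (top) and 8 genes of the endoplasmic reticulum (bottom), where a line is the mean of 3 arrays. The means of Cct4 are 1154 with DMSO and 893 with UNC0638, and those of Hspa5 are 4331 and 4345.

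RefSeq promoter windows, which run from 250 bases before to 50 after the start of a transcript on GRCm38.p6, were found for 36 of the 44 members. The window of Cct7 is shown since this gene had the largest difference in the ring. Capitals mark CCAAT boxes, read on either strand (ATTGG on the other). CCAAT was in 4 of the 7 TRiC genes with a window and in 41.1% of all genes with a window, and no CCAAT and CCACG pair spaced as in the endoplasmic reticulum element described below was in any of the 7.
Cct7, chr6:85451255-85451554, plus strand: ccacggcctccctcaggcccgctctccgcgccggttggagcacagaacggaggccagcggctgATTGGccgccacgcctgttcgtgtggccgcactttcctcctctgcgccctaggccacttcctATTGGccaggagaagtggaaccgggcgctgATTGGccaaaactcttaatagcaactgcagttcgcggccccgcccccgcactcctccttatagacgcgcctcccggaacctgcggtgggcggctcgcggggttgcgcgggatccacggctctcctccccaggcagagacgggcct

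In the cytosolic HSP90 system all 6 measured members were below 0, with a median of -0.24. The groups did not overlap in 4 of 6, against 7.4% of all genes lower without overlap. Cdc37, the cochaperone that brings kinases to HSP90, had the largest difference of all members. It was at 1054, 1117 and 887 in DMSO and at 690, 796 and 750 in UNC0638 (-0.44, SE 0.11, adjusted p = 0.120, probe set 10591472), and every treated array lay below every control array. Ahsa1, which activates the ATPase of HSP90, was at 1836, 1744 and 1589 against 1385, 1490 and 1423 (-0.26, SE 0.084). Stip1, the adaptor that joins HSP70 to HSP90, was at 2194, 2318 and 2073 against 1802, 1789 and 2031 (-0.23, SE 0.087). Both were lower on every treated array, with adjusted p of 0.236 and 0.322. The stress-inducible HSP90 gene itself, Hsp90aa1, was at 5278, 4870 and 5378 against 4820, 4451 and 4761. Its groups did not overlap (-0.15, SE 0.080, adjusted p = 0.528). It has 2 further probe sets, whose differences were -0.31 and -0.18. Chordc1, a cochaperone induced by heat, had a difference of -0.30 (95% interval -0.61 to 0.0058), and Ptges3, which encodes p23, one of -0.12 (-0.053 by its other probe set).

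In the cytosolic HSP70 system 7 of 8 measured members were below 0, with a median of -0.098 (-0.16 without DMSO 2). Only 1, Hsph1, did not overlap, which is too few to set apart from the 7.4% of all genes lower without overlap. Hsph1, a nucleotide exchange factor of HSP70, was at 786, 816 and 815 against 548, 722 and 737 (-0.28, SE 0.12, adjusted p = 0.374), with UNC0638 1 the lowest, and its difference was -0.14 without that array. Hspa8, the constitutive HSP70, was at 7119, 6419 and 7545 against 6516, 6425 and 6855, with the treated arrays inside the control range (-0.088, SE 0.087). The 95% interval of its difference was -0.29 to 0.11. The J-domain partner Dnaja1 (-0.096) and the exchange factor Hspa4 (-0.10) overlapped between groups too. Hspa1a, Hspb1, Dnajb1 and Bag3, known targets of HSF1, overlapped between groups and, like all 41 measured members, did not pass. Dnajb1 would have needed a difference of 1.06 in size to be called, and Hspb1 one of 0.95. Hsph1 and the stress-inducible Hsp90aa1, given above, were lower without overlap. The inducible HSP70 gene Hspa1a was at 57.5, 57.7 and 60.7 in DMSO and 63.3, 58.4 and 51.0 in UNC0638 (-0.023), near the array medians of 50.4 to 54.9, and Hspb1 was at 42.3 ± 15.8 and 46.5 ± 1.28 (SD, n = 3 each). Dnajb1, with a difference of -0.21 (95% interval -0.63 to 0.21), and Bag3, with one of -0.27 (-0.55 to 0.014), varied more between arrays. The dim signals of Hspa1a and Hspb1 limit what could be seen, since the pseudocount shrinks the differences of dim genes. A probe set that names both Hspa1a and Hspa1b was left out. Other probe sets gave -0.22 for Dnaja1, -0.046 and -0.085 for Hspa8, and -0.071 for Hspb1, which has the opposite sign to its 0.13.

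The 3 mitochondrial matrix chaperones were all below 0, with a median of -0.20, where 46.1% of all genes lay below 0. Hspa9, the mitochondrial HSP70 mortalin, was at 3395, 3422 and 3638 against 2817, 2931 and 3159 (-0.23, SE 0.081, adjusted p = 0.273). Hspd1, the HSP60 chaperonin, was at 4532, 4202 and 4825 against 4067, 3930 and 3802 (-0.20, SE 0.083, adjusted p = 0.367). Neither gene overlapped between groups, where 7.4% of all genes were lower without overlap, and a list of 3 genes is small. Hspe1, its cochaperonin HSP10, did overlap (-0.13, 95% interval -0.38 to 0.12). Other probe sets of Hspd1 and Hspe1 gave -0.18 and -0.099.

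Heat shock elements were looked for in the promoter windows as GAA units that alternate with TTC at spacings of 2 bases, on both strands. A pair of units was in 13 of the 36 members with a window and in 17.0% of all 27025 genes with one. A run of at least 3 units was in 4 members, and in 0.662% of all genes. The 4 runs are shown because they are the longest matches among the members. Capitals mark the units and the bases between them. Hspd1 and Hspe1 lie head to head and one of the windows of Hspd1 shares 285 bases with that of Hspe1, so both show the same run from opposite strands.
Chordc1, chr9:18292263-18292285, plus strand: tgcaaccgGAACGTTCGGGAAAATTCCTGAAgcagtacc
Hsph1, chr5:149636288-149636300, minus strand: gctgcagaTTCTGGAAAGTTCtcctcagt
Hspd1, chr1:55088059-55088076, minus strand: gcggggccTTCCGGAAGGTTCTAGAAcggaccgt
Hspe1, chr1:55088059-55088076, plus strand: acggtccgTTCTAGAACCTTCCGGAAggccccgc
The run of Chordc1 holds 5 units, those of Hspd1 and Hspe1 hold 4 and that of Hsph1 holds 3. The log2 differences of these 4 genes ran from -0.30 for Chordc1 to -0.13 for Hspe1, with a median of -0.24. The 31 other measured members with a window ran from -0.44 to 0.19, with a median of -0.12, but 14 of them are endoplasmic reticulum genes (median -0.071). The 7 TRiC genes with a window, none with such a run, had a median of -0.29. This is a description of few genes that include neighbours with a common promoter, and a match is not evidence that a factor binds.

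In the endoplasmic reticulum 11 of 16 differences were below 0, with a median of -0.078. Hspa5, Calr, Canx, Dnajc3 and Herpud1 had differences near 0, a grouping made by their values. Calr and Dnajc3 were picked after their values were seen. The isomerases Pdia3, Pdia4 and Pdia6 (-0.13 to -0.11) and Hyou1 (-0.38), described below, were lower. Hspa5 (probe set 10471586), the BiP gene, was at 4381, 4251 and 4362 in DMSO and 4294, 4468 and 4273 in UNC0638. The groups overlapped, at a log2 difference of 0.0043 (SE 0.072, 95% interval -0.16 to 0.17), or -0.042 when arrays were centred on their medians. Calr, the lectin chaperone calreticulin, was at 5174, 4826 and 4899 against 5060, 5004 and 4919 (0.0086, 95% interval -0.16 to 0.18). Its membrane-bound relative Canx had a difference of 0.059 (-0.12 to 0.24). Hsp90b1, the GRP94 gene, was at 6221, 5622 and 6196 against 5609, 5732 and 5707 (-0.080, 95% interval -0.26 to 0.10). Dnajc3, a J-domain cochaperone of BiP that also restrains stress kinases, was at 2492, 2595 and 2529 against 2471, 2655 and 2465 (-0.0053). Herpud1, a membrane protein of the degradation pathway, and Dnajb9, a J-domain protein that restrains the sensor IRE1, had differences of 0.011 and 0.19, and both overlapped. Xbp1, the transcription factor of this response, was at 625, 550 and 537 against 518, 575 and 528 (-0.076, SE 0.089, adjusted p = 0.814), and its difference ran from -0.12 to -0.011 with single arrays left out, the last without DMSO 1. Arrays of this kind sum a transcript's signal and do not tell the spliced, active form of Xbp1 from the unspliced.

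In 3 genes of the same compartment every treated array lay below every control array. Hyou1, the exchange factor of BiP, was at 774, 860 and 707 against 665, 550 and 572 (-0.38, SE 0.11, adjusted p = 0.164, probe set 10584712). Its groups did not overlap, and it was the 1 member of the 16 at an unadjusted limma p under 0.05. A count of 1 in 16 is near the share of all genes lower at that p, 6.21%. Manf, a secreted stress protein held by BiP, was at 1469, 1353 and 1227 against 1182, 1162 and 1177 (-0.20, SE 0.087, adjusted p = 0.403), again without overlap and with nearly equal treated arrays. The disulfide isomerase Pdia6 was at 1893, 1876 and 1939 against 1710, 1727 and 1866 (-0.11, SE 0.076). The isomerases Pdia3 (-0.12) and Pdia4 (-0.13, or 0.035 by a dim second probe set), and Sdf2l1 (-0.16), Creld2 (-0.13) and Dnajb11 (-0.066), cofactors of folding in this compartment, overlapped between groups. Over all 16 genes, 11 differences were below 0 (68.8%, against 46.1% of all genes), with a median of -0.078. The 3 genes without overlap are 18.8% of the 16, against 7.4% of all genes lower without overlap.

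The element through which ATF6 acts is CCAAT and CCACG set apart by 9 bases. It was in 7 of the 14 endoplasmic reticulum genes with a window, in 0 of the 22 other members with one, and in 37 of 27025 genes in all (0.137%). All its matches in the members are shown, read along the gene, since no member outside this compartment has one. Capitals mark the 2 boxes (CGTGG and ATTGG where the match lies on the other strand). The shorter core TGACGTGG, which XBP1 and ATF6 are known to bind, was in 0 member windows and 0.714% of all genes.
Hspa5, chr2:34772025-34772043, plus strand: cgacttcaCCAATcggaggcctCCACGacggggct
Hsp90b1, chr10:86705638-86705656, minus strand: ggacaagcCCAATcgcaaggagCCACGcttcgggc
Hsp90b1, chr10:86705533-86705551, minus strand: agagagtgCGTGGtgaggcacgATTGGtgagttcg
Calr, chr8:84847075-84847093, minus strand: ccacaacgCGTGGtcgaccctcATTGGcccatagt
Canx, chr11:50325800-50325818, minus strand: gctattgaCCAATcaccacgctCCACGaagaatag
Pdia6, chr12:17266491-17266509, plus strand: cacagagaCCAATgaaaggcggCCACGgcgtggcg
Dnajc3, chr14:118937827-118937845, plus strand: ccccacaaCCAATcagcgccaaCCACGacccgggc
Creld2, chr15:88819520-88819538, plus strand: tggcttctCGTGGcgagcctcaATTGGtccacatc
The 7 genes with this element had log2 differences of -0.13 to 0.059, with a median of -0.0053. The 7 endoplasmic reticulum genes with a window but no such match ran from -0.16 to 0.19, with a median of -0.076. The ranges overlap, the medians were not tested against each other, and a match is not evidence that a factor binds. Hyou1 and Manf have no window in the table. The whole window of Hspa5 follows, with the matched boxes in capitals, because BiP is the usual readout of this response.
Hspa5, chr2:34771840-34772139, plus strand: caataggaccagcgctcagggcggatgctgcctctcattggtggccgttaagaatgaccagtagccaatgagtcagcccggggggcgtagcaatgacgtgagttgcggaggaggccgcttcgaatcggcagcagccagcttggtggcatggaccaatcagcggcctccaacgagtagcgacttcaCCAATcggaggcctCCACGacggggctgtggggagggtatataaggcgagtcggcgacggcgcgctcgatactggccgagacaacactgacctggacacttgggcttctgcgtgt

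The compartments were also followed array by array. Relative to the DMSO mean of each gene, the median of the TRiC genes was 0.091, -0.033 and -0.070 with DMSO against -0.38, -0.35 and -0.26 with UNC0638, which is 8 of 8 subunits below the DMSO mean on each treated array. The HSP90 system was at 0.055, -0.033 and -0.020 against -0.22, -0.25 and -0.20. The HSP70 system was at 0.014, -0.12 and 0.072 against -0.12, -0.12 and -0.14, where DMSO 2 was as low as the treated arrays. The mitochondrial genes were at 0.0062, -0.10 and 0.096 against -0.15, -0.21 and -0.25. The endoplasmic reticulum genes were at 0.034, -0.016 and -0.012 against -0.039, -0.087 and -0.057. The median of TRiC minus that of the endoplasmic reticulum was 0.057, -0.017 and -0.058 with DMSO against -0.34, -0.26 and -0.20 with UNC0638. The compartments were not tested against each other.

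**Figure D3:**
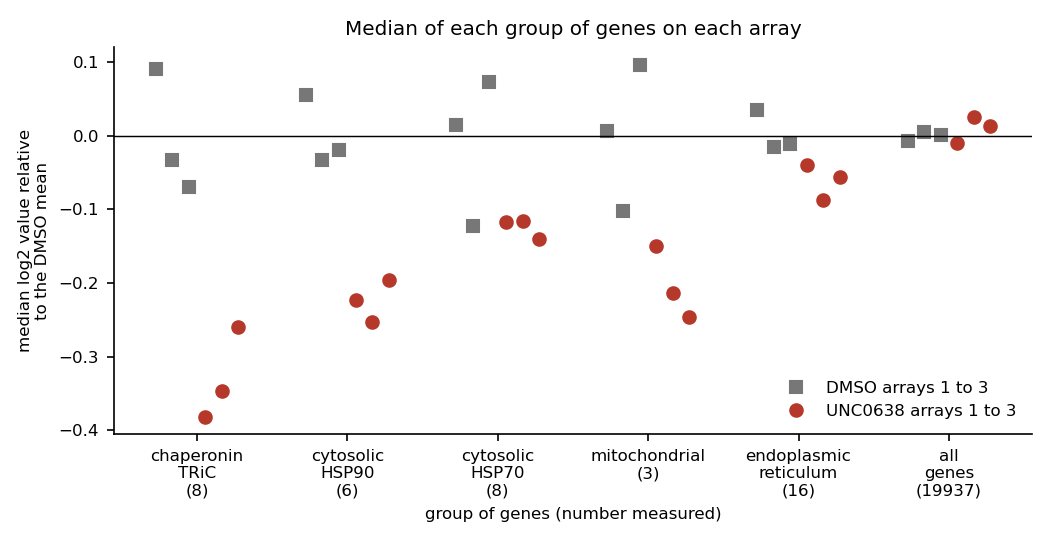
Median log2 value relative to the DMSO mean (y axis) of the genes of each compartment, and of all genes, on the 3 DMSO arrays (grey squares) and the 3 UNC0638 arrays (red circles). TRiC is at -0.38 to -0.26 on the treated arrays, the endoplasmic reticulum at -0.087 to -0.039, and all genes at -0.0095 to 0.025.

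Other genes of the same pathways, 138 in 7 lists set by function, had 3 genes past the threshold, where 0.672% of all genes passed (0.301% lower and 0.371% higher). Among 32 other folding enzymes of the endoplasmic reticulum 2 fell and 0 rose, at a median of -0.055. At an unadjusted limma p under 0.05, 7 of them were lower and 2 higher, against 6.21% and 6.47% of all genes. Fkbp11, a prolyl isomerase of secretory cells, fell from 459, 506 and 408 to 235, 245 and 235 (-0.89, SE 0.093, limma adjusted p = 0.00886, but 0.0682 without UNC0638 1). Ero1a, the oxidase that recharges disulfide isomerases and is also induced by low oxygen, fell from 2827, 2602 and 2839 to 1916, 1784 and 1948 (-0.55, SE 0.080, adjusted p = 0.0285), a call kept in 6 of 14 alternatives and lost when any one of the 6 arrays was left out, at adjusted p of 0.0649 to 0.117. Of 17 sensors and factors of the unfolded protein response 1 rose and 0 fell, at a median of 0.13, with 14 differences above 0. This was Atf3, a transcription factor of several stress pathways, which rose from 346, 401 and 515 to 704, 906 and 943 (1.00, SE 0.16, adjusted p = 0.0378, kept in 8 of 14 alternatives, and of the 6 left-out arrays only without DMSO 3). The stress factor Ddit3 in the same list had a difference of 0.33 and the sensor gene Atf6 one of 0.25, and neither passed. Of the 17 genes 4 were higher and 0 lower at an unadjusted limma p under 0.05, against 6.47% and 6.21% of all genes. Differences below 0 made up 17.6% of this list and 46.1% of all genes.

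In the other 5 lists 0 genes passed. The counts at an unadjusted p under 0.05 given for these lists stand beside 6.21% lower and 6.47% higher over all genes, and counts of 2 in the prefoldin and degradation lists are too few to set apart from that share. Of 27 further cytosolic cochaperones 21 were below 0, with a median of -0.15, and Bag2, an inhibitor of the ubiquitin ligase that works with HSP70, had the smallest p (124, 136 and 104 against 70.7, 54.9 and 91.8, -0.65, SE 0.15, adjusted p = 0.120). At an unadjusted p under 0.05, 7 of these were lower and 1 was higher. Of 13 other mitochondrial chaperones and proteases 11 were below 0, with a median of -0.20 and 6 lower at an unadjusted p under 0.05, the protease Lonp1 (-0.38, adjusted p = 0.156) first. Prefoldin, which hands chains to TRiC, and tubulin cofactors had a median of -0.061 over 14 genes, with 2 lower at an unadjusted p under 0.05, Pfdn6 at -0.29 (adjusted p = 0.224) first. Genes of degradation from the endoplasmic reticulum were centred at 0.0026 over 23 genes, with 2 lower at an unadjusted p under 0.05 and Nploc4 at -0.32 (adjusted p = 0.247). Other heat shock factors and inducible proteins were at a median of 0.017 over 13 genes, with 0 at an unadjusted p under 0.05 in either direction. In that list Hspa1l, at -0.59 (adjusted p = 0.555), rests on a single control array of 103, where the other two read 31.2 and 25.3, and its difference was -0.12 without that array.

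**Figure D4:**
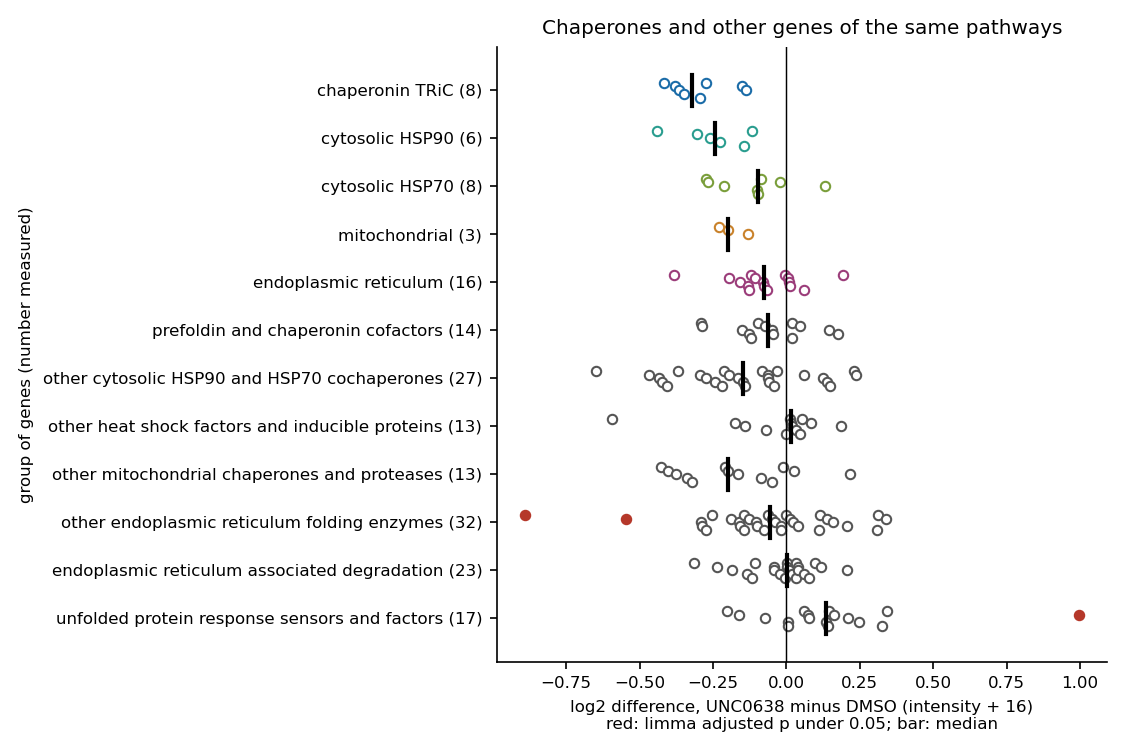
Log2 differences (x axis) of the members by compartment and of 7 lists of other genes of these pathways, with the number measured in brackets; a bar is the median and red points passed the limma threshold. The 3 red points are Fkbp11 at -0.89, Ero1a at -0.55 and Atf3 at 1.00.

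Markers of the labelled cell type were present, and some markers of mature myeloid cells rose with the treatment. All 12 markers of haematopoietic and myeloid progenitors lay above the median of the array on some or all arrays. Their summed intensities were 27798 to 28665 in DMSO and 28526 to 30475 in UNC0638. At an unadjusted limma p under 0.05, 4 of them were higher and 0 lower, against 6.47% and 6.21% of all genes. All 5 megakaryocyte markers, and all but 1 in each of the neutrophil, macrophage and mast cell lists, reached that median too. This level therefore does not single out a cell type. Over all genes 0.371% were called higher. Of 12 mature neutrophil markers 4 rose and 0 fell (sums of 15942 to 16868 against 19503 to 22466), of 12 macrophage markers 3 rose and 0 fell (6573 to 8092 against 10142 to 10641), and of 9 mast cell and basophil markers 2 rose (8162 to 9741 against 10232 to 11295). Examples are Cxcr2 (1.23), Itgax (0.77) and Cma1 (0.73). The lists of erythroid (6 genes measured), T cell (7), B cell (9), megakaryocyte (5) and stromal genes (8) had 0 genes past the limma threshold. At an unadjusted p under 0.05 these lists had 0 erythroid genes, 2 higher T cell genes, 1 higher B cell gene, 1 lower megakaryocyte gene and 1 higher stromal gene. Of all genes 6.21% were lower and 6.47% higher, so single genes in lists of this size are near the background. The 2 T cell genes of 7, Cd8a and Cd3g, are a larger share than that, but both lay below the array median on every array. In bulk samples, fewer cells with a high level and a lower level per cell cannot be told apart.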

How the data were processed

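The authors deposited 1 linear intensity per probe set for 34760 probe sets of an Affymetrix array on 6 samples, with cRNA labelled with biotin per the labels; how probes were summarised and arrays normalised is not given in the sources used here. GEO's platform annotation gave 1 gene symbol for 21640 probe sets, several for 1321 and none for 11799. Each of 19937 genes was read from its single-gene probe set of highest mean. Values were taken as log2(intensity + 16) and UNC0638 was compared with DMSO (3 arrays each) with limma 3.58.1 in R 4.3.3 (lmFit and eBayes over all genes, Benjamini-Hochberg threshold 0.05). A group was called non-overlapping where all its arrays lay beyond all arrays of the other. The number of arrays limits the precision. The script was tested on simulated data. Alternatives were quantile normalization, median centring, removal of the dimmest 40% of genes, the mean of a gene's probe sets, a trended robust prior, pseudocounts of 1 and 64, the replicate number as a block, and each array left out.

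The members, the related lists and the marker lists were chosen with earlier results of these data known. Values on every array are given for up to 3 non-overlapping genes of smallest p in each compartment, for Xbp1, Hspa5, Hsp90aa1, Hsp90b1, Hspa8, Hspd1 and Tcp1, and in related lists for genes past the threshold (up to 2 each way), or else the gene of smallest p is named; of markers, examples past the threshold are named. Calr, Dnajc3, Hspa1a, Ddit3 and Atf6 were added after their values were seen. Promoter windows came from RefSeq (GRCm38.p6, matched by symbol). The windows of Hyou1, Hspa9, Hsp90aa1, Cct4, Hspa8, Manf, Hsp90ab1 and Hsf1 were not used here, nor were protein sequences. Plots were drawn with matplotlib 3.10.9.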

Additional observations from a re-analysis of the deposited data

How the results depend on the processing

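None of the 14 alternatives called a member, and in each of them 33 to 38 members had a difference below 0. The share of all genes below 0 ran from 44.1% without UNC0638 1 to 61.1% under median centring, the setting with 38 members. The median of TRiC stayed between -0.37 and -0.28. The HSP70 median ran from -0.16 (without DMSO 2) to -0.066. The cytosolic HSP90 median was -0.20 under quantile normalization and -0.29 under median centring, and -0.28 to -0.19 with single arrays left out, the last without UNC0638 2. The endoplasmic reticulum median was -0.12 under median centring and -0.10 to -0.049 with arrays left out, the last without DMSO 3. The difference of Hspa5 changed sign, to -0.042 under median centring, -0.0091 without DMSO 2 and -0.016 without UNC0638 2; with arrays left out it ran from -0.016 to 0.016. The median of all genes also changed sign, to -0.014 under quantile normalization, -0.034 under median centring and -0.0059 without the dimmest 40% of genes. Members lower without overlap numbered 11 under quantile normalization (background 9.42%) and 16 to 26 with arrays left out (background 11.1% to 13.1%). Those lower at an unadjusted limma p under 0.05 numbered 8 to 12 with arrays left out (background 4.81% to 6.67%). The 134 calls over all genes were 49 with a pseudocount of 64, and 10 (without UNC0638 1) to 69 (without DMSO 3) with arrays left out; they were 67 without DMSO 1, 43 without DMSO 2, 31 without UNC0638 2 and 40 without UNC0638 3. Calls were more numerous without the dimmest 40% of genes (192) and with the trended robust prior (182). With the replicate number as a block there were 73 calls and 0 members among them. Samples with the same number had correlations of their deviations of -0.066, 0.11 and 0.017, so the numbers are not taken as pairs; not every sample correlated best with its own number. Over the alternatives the adjusted p of Cct4 ran from 0.0502 to 0.230. Ero1a lost its call with a pseudocount of 1 (adjusted p = 0.0591) and under the block (0.0689), and Atf3 with a pseudocount of 64 (0.0935). The cause of these changes was not tested. Dim signals limit Hspa1a and Hspb1.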
